A study of Mus musculus with 6 samples.

Results

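The 3 genes Mef2a, Mef2c and Mef2d, which encode members of the MEF2 family of transcription factors, were examined for ubiquitylated histone H2B (H2Bub) in C2C12 cells, a mouse myoblast line that fuses into myotubes in culture. They were taken by position, as intervals of genome build mm9: chr13:83643000-83807000 for Mef2c (164 kb), chr7:74376000-74518000 for Mef2a (142 kb) and chr3:87946000-87976000 for Mef2d (30 kb). Together they hold 34 of the 233813 windows of 10 kb tested across chromosomes 1 to 19 and X, with 17 in Mef2c, 14 in Mef2a and 3 in Mef2d. The genes were selected on their H2Bub reads and peaks in these same libraries, with the difference between the groups already known, so their values are given as a description, with no test of their own. Myotubes (MT, 3 libraries) were harvested after 96 h, or 4 days, in 2% horse serum, and growing myoblasts (MB, 3 libraries) at about 40% confluency in 10% fetal bovine serum. The labels give C2C12 as the cell type but C1C12 as the source name, and they do not say whether replicates came from separate cultures. All 6 libraries came from chromatin digested with micrococcal nuclease and precipitated with 1 H2Bub antibody clone, each with a lot number of its own, so that lot and library cannot be told apart. Input and expression data were not used here. In such bulk samples, fewer cells that carry a mark and less of it per cell cannot be told apart.

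MEF2 proteins bind DNA through a MADS box and an adjoining MEF2 domain, and in skeletal muscle they act with the MyoD family of basic helix-loop-helix factors to switch on muscle structural genes. In mouse, Mef2c is itself a target of MyoD family and MEF2 proteins in developing muscle, whereas Mef2a and Mef2d are expressed in many tissues. H2Bub is placed on nucleosomes as RNA polymerase II elongates, and is therefore known as a mark of transcribed gene bodies.

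The myotube libraries held 8759266 to 14467774 reads on chromosomes 1 to 19 and X, and the myoblast libraries 9285330 to 15891204. In myotubes 6.65% to 9.46% of these reads lay in MB peaks, against 31.5% to 38.8% in myoblasts. MT replicate 2 had the lowest share and stood apart at Mef2a, so the main values are given with and without it. Density is given as reads per kb of sequence per 1000000 reads on these chromosomes (RPKM). A library with a smaller share of reads in peaks has a larger share elsewhere, so each gene is also given relative to windows without a peak around it, a ratio in which this scaling cancels.

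The promoters are shown because H2Bub in myoblasts had an edge near the 5′ end of Mef2a and Mef2d and none at Mef2c. They are from RefSeq on build GRCm38.p6, whose coordinates cannot be set beside the mm9 ones, and run from 250 bases before the start to 10 after it. The RefSeq table used here has 1 start for Mef2a, 1 for Mef2d and 3 for Mef2c, of which the first is printed. On that build the Mef2a start lies 3.6 kb inside the 5′ end of the gene and the Mef2d start 0.43 kb inside. Whether the printed sequences lie at the H2Bub edges was not tested. Capitals mark the MEF2 consensus site or the sequence CANNTG, the E-box bound by MyoD family proteins, both searched on both strands.
Mef2a, chr7:67372849-67373108, minus strand: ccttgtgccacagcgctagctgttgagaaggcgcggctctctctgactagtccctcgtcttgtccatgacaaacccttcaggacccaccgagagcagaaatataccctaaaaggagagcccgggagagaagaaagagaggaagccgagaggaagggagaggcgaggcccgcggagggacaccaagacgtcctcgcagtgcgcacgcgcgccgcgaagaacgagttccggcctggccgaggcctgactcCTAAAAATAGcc
Mef2c, chr13:83503784-83504043, plus strand: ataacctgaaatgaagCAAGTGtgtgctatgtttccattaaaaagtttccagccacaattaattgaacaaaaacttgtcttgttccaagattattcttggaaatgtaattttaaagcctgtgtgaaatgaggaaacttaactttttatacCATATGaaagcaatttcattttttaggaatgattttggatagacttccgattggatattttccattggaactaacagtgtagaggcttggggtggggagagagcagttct
Mef2d, chr3:88142122-88142381, plus strand: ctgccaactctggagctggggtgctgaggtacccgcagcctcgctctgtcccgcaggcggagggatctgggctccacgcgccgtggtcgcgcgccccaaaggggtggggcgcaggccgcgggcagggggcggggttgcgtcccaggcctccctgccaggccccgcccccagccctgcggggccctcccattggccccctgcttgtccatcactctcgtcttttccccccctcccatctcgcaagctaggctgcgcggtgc

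The Mef2a promoter held 1 match to the MEF2 consensus site, CTAAAAATAG, which spans the annotated start. Such a match was present in 2.98% of the 32851 RefSeq mouse promoters of the same length. The first Mef2c promoter held 2 copies of CANNTG, a sequence found in 67.7% of all promoters, and the third Mef2c promoter held 1 copy, whereas neither motif was matched in the second Mef2c promoter or in that of Mef2d. The share of G and C was 60.4% at Mef2a and 73.5% at Mef2d, with a median of 52.3% over all promoters. At Mef2c it was 34.2% at the first start, 45.8% at the second and 49.2% at the third. These matches describe the letters in each window and not binding.

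Mef2c, the family member best known for a role in muscle differentiation, was the one of the 3 genes with more H2Bub reads in myotubes than in myoblasts. It had 0.797, 0.565 and 0.741 RPKM in the 3 myotube libraries, from 1145, 857 and 1758 reads, against 0.315, 0.258 and 0.265 RPKM in the 3 myoblast libraries, from 480, 443 and 691 reads. Every myotube library was above every myoblast library, as was the case in 67.5% of all 10 kb windows tested. The means were 0.701 ± 0.121 RPKM in myotubes and 0.279 ± 0.0314 RPKM in myoblasts (SD, n = 3 each), a log2 ratio of 1.33. Without MT replicate 2 the log2 ratio was 1.46.

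The sequence around Mef2c also had more reads in myotubes. Windows without a peak within 250 kb of the gene had 0.396 ± 0.031 RPKM in myotubes and 0.192 ± 0.0248 RPKM in myoblasts (SD, n = 3 each; 47 windows). Relative to this local background, Mef2c was at 2.06, 1.31 and 2.00 times in myotubes, against 1.45, 1.54 and 1.39 times in myoblasts. MT replicates 1 and 3 were above all myoblast libraries on this measure and MT replicate 2 was below all of them. The means were 1.79 ± 0.416 times in myotubes and 1.46 ± 0.0744 times in myoblasts (SD, n = 3 each), a difference within the spread of the myotube libraries, and the myotube mean without MT replicate 2 was 2.03.

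The flanks of Mef2c were unequal, and the comparison depended on which was used. The 50 kb upstream had 0.535 ± 0.0207 RPKM in myotubes and 0.225 ± 0.0152 RPKM in myoblasts, whereas the 50 kb downstream had 0.209 ± 0.0152 RPKM in myotubes and 0.102 ± 0.0143 RPKM in myoblasts (SD, n = 3 each; 4 windows a side). Over the upstream flank alone, the gene was at 1.49, 1.02 and 1.44 times in myotubes, against 1.35, 1.24 and 1.14 times in myoblasts, so that the groups overlapped. Over the downstream flank alone, it was at 4.11, 2.52 and 3.54 times in myotubes, against 2.79, 3.00 and 2.48 times in myoblasts, and they overlapped again. The downstream flank included a 2 kb bin, 175 kb from the 5′ end, with 0 RPKM in all 6 libraries. Whether reads could be placed there was not tested, and the size of the downstream ratios depends on it. RefSeq places the lncRNA gene Gm33317 0.116 kb from Mef2c. The lncRNA genes Gm52043 and Gm52044 overlap Mef2c, so reads in shared sequence cannot be assigned to 1 of them.

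**Figure D1:**
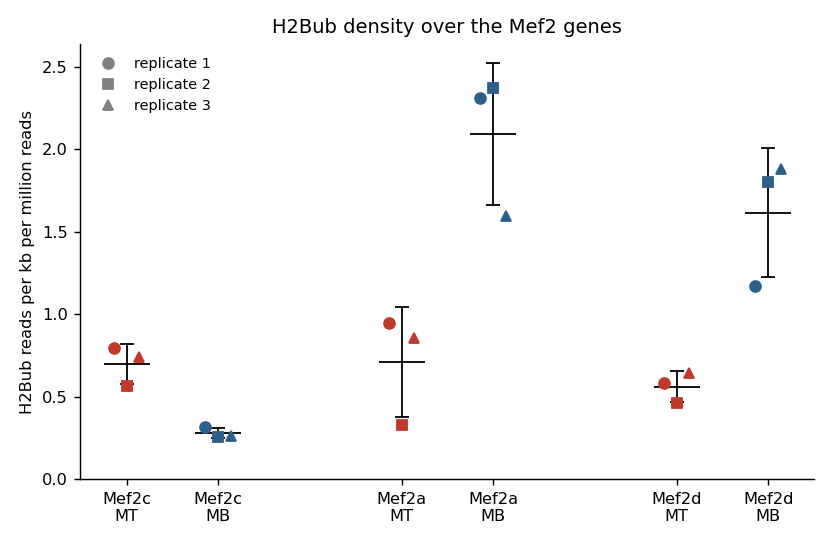
H2Bub density (RPKM, vertical axis) over each Mef2 gene in the 3 MT (red) and 3 MB (blue) libraries; points are libraries, shaped by replicate, and black bars are the mean and SD. Mef2c is higher in every MT library, whereas Mef2a and Mef2d are lower in every MT library, with MT replicate 2 the lowest MT library at all 3 genes. Of all 10 kb windows tested, 67.5% have all MT libraries above all MB libraries and 13.3% have them below. Of windows with an MB peak, as at Mef2a and Mef2d, 85.7% are called lower in MT.

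**Figure D2:**
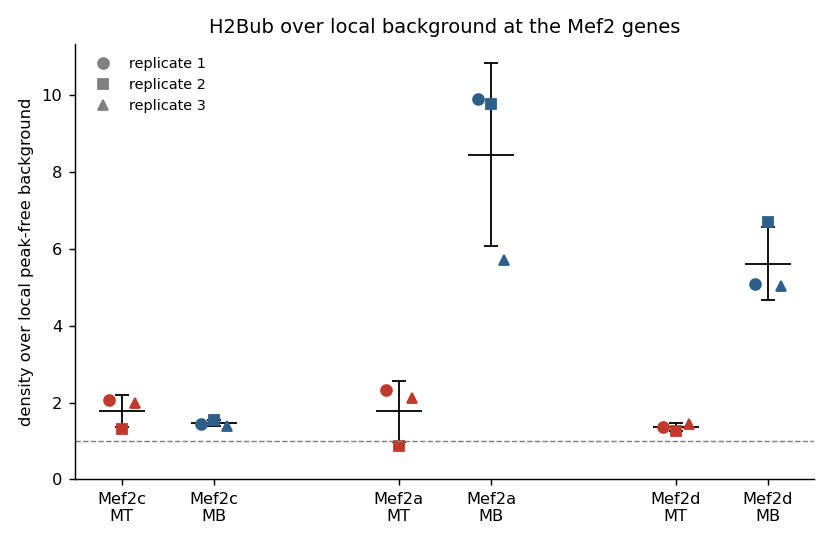
Density of each Mef2 gene divided by that of windows without a peak within 250 kb (vertical axis; the dashed line at 1 marks no excess) in the 3 MT (red) and 3 MB (blue) libraries, with the mean and SD as black bars. Mef2a and Mef2d lie between 0.866 and 2.32 times background in MT and between 5.03 and 9.90 times in MB, while the groups overlap at Mef2c.

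Mef2a, a broadly expressed family member, had the highest H2Bub mean of the 3 genes in myoblasts, and less than that in every myotube library. It had 0.947, 0.329 and 0.858 RPKM in the myotube libraries, from 1178, 432 and 1763 reads, against 2.31, 2.37 and 1.60 RPKM in the myoblast libraries, from 3046, 3532 and 3603 reads. The groups did not overlap. All myotube libraries were likewise below all myoblast libraries in 13.3% of all 10 kb windows tested, most of which held no peak. Every window of Mef2a held an MB peak, and of all windows with one 85.7% were called lower in the fit described below. The means were 0.711 ± 0.334 RPKM in myotubes and 2.09 ± 0.43 RPKM in myoblasts (SD, n = 3 each), a log2 ratio of -1.56. Without MT replicate 2 the myotube mean was 0.903 RPKM and the log2 ratio -1.21.

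In 2 of the 3 myotube libraries Mef2a was still above its surroundings. It was at 2.32, 0.866 and 2.13 times the local background in myotubes, against 9.90, 9.77 and 5.71 times in myoblasts (45 windows without a peak within 250 kb). MT replicate 2 was thus below its own local background, and the other myotube libraries were above 2 times. The means were 1.77 ± 0.79 times in myotubes and 8.46 ± 2.38 times in myoblasts (SD, n = 3 each), and the myotube mean without MT replicate 2 was 2.23.

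Mef2d, the third member and likewise broadly expressed, also had less H2Bub in every myotube library. It had 0.582, 0.462 and 0.643 RPKM in the myotube libraries, from 153, 128 and 279 reads, against 1.17, 1.80 and 1.88 RPKM in the myoblast libraries, from 326, 567 and 895 reads. The groups did not overlap, with myotubes below, as in 13.3% of all 10 kb windows tested. Every window of Mef2d also held an MB peak, and 85.7% of such windows were called lower in the fit described below. MB replicate 1 was the lowest of the myoblast libraries. The means were 0.562 ± 0.0922 RPKM in myotubes and 1.62 ± 0.388 RPKM in myoblasts (SD, n = 3 each), a log2 ratio of -1.52, or -1.40 without MT replicate 2.

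Over its local background Mef2d was at 1.38, 1.25 and 1.44 times in myotubes, against 5.09, 6.71 and 5.03 times in myoblasts (27 windows without a peak within 250 kb). All 3 myotube libraries thus lay close to the level of the surrounding sequence. RefSeq has the lncRNA gene 1700113A16Rik overlapping Mef2d, so reads in shared sequence cannot be assigned to 1 of the genes. The means were 1.36 ± 0.0999 times in myotubes and 5.61 ± 0.953 times in myoblasts (SD, n = 3 each). The upstream 50 kb of Mef2d was itself uneven between myoblast libraries, at 0.283, 0.472 and 0.563 RPKM, while the myotube libraries had 0.491, 0.452 and 0.522 RPKM there.

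The order of the 3 genes differed between the groups. In myotubes the means were 0.711 RPKM for Mef2a, 0.701 RPKM for Mef2c and 0.562 RPKM for Mef2d, and the libraries of neighbouring genes in that order overlapped. In myoblasts the means were 2.09 RPKM for Mef2a, 1.62 RPKM for Mef2d and 0.279 RPKM for Mef2c. There, Mef2a and Mef2d overlapped, and Mef2c was below both in every library. The ratio of Mef2a to Mef2c within a library, which needs no scaling, was 1.19, 0.582 and 1.16 in myotubes, against 7.33, 9.21 and 6.02 in myoblasts. The ratio of Mef2d to Mef2c was 0.731, 0.817 and 0.868 in myotubes, against 3.71, 6.997 and 7.08 in myoblasts, so that within each myotube library Mef2d was below Mef2c. The ratio of Mef2a to Mef2d did not separate the groups, at 1.63, 0.713 and 1.34 in myotubes, against 1.97, 1.32 and 0.851 in myoblasts.

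Mef2c had no common slope from its 5′ to its 3′ end, and its mean density was highest inside the gene in both groups. The 25% of the gene nearest its 5′ end held 23.3% ± 1.58 of its reads in myotubes and 24.3% ± 3.28 in myoblasts, and the 25% nearest its 3′ end 22.8% ± 3.5 in myotubes and 21.8% ± 3.38 in myoblasts (SD, n = 3 each). The density of the 5′ part over that of the 3′ part was 1.09, 0.808 and 1.24 in myotubes, against 1.45, 1.13 and 0.855 in myoblasts. The second 25% from the 5′ end held 29.9%, 26.7% and 29.6% in myotubes, against 30.8%, 25.96% and 27.2% in myoblasts. It was above the first 25% in every myotube library and in 2 of the 3 myoblast libraries. In MT replicate 2 the last 25% held the same share, 26.7%, and in MB replicate 3 the third 25% held more, 28.2%. Means of the 10 kb windows ranged from 0.517 to 0.889 RPKM in myotubes and from 0.212 to 0.372 RPKM in myoblasts. The highest myotube window, chr13:83710001-83720000, 72 kb from the 5′ end, was named after its values were seen. It had 1.07, 0.66 and 0.933 RPKM in myotubes, against 0.409, 0.21 and 0.271 RPKM in myoblasts.

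Mef2a had a gradient from 5′ to 3′ that was steep and alike in the 3 myoblast libraries. The 5′ 25% of the gene held 36.7%, 27.3% and 39.2% of its reads in myotubes, against 47.9%, 47.3% and 47.5% in myoblasts. The 3′ 25% held 16.2%, 32.2% and 17.02% in myotubes, against 12.2%, 12.5% and 13.5% in myoblasts. The 5′ part had 2.26, 0.849 and 2.30 times the density of the 3′ part in myotubes, against 3.94, 3.80 and 3.53 times in myoblasts. The gradient was therefore present in MT replicates 1 and 3 and absent in MT replicate 2, the library in which Mef2a as a whole was not above background. Inside the MT peaks of the gene, MT replicate 2 had 0.755 RPKM, against 0.380 RPKM in its local background. Those peaks were drawn from myotube reads. At the 5′ edge the signal ended sharply in myoblasts: the first window outside the gene, chr7:74520001-74530000, had 0.5 ± 0.0867 RPKM in myotubes and 0.306 ± 0.0683 RPKM in myoblasts, and the window across the edge, chr7:74510001-74520000, had 0.752 ± 0.404 RPKM in myotubes and 3.13 ± 0.592 RPKM in myoblasts (SD, n = 3 each). Of the 71 bins of 2 kb along Mef2a, 2 held no read in any of the 6 libraries, which shows only that no read was listed there.

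Mef2d had its highest density in myoblasts inside the gene and not at its 5′ end. The second 25% of its length from the 5′ end held 32.7%, 25.8% and 28.7% of the reads in myotubes, against 42.6%, 47.3% and 42.0% in myoblasts. Every myoblast library was above every myotube library there. The first 25% held 21.2% ± 2.24 in myotubes and 21.0% ± 1.45 in myoblasts, and the last 25% held 23.6% ± 1.39 in myotubes and 15.6% ± 0.805 in myoblasts (SD, n = 3 each).

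**Figure D3:**
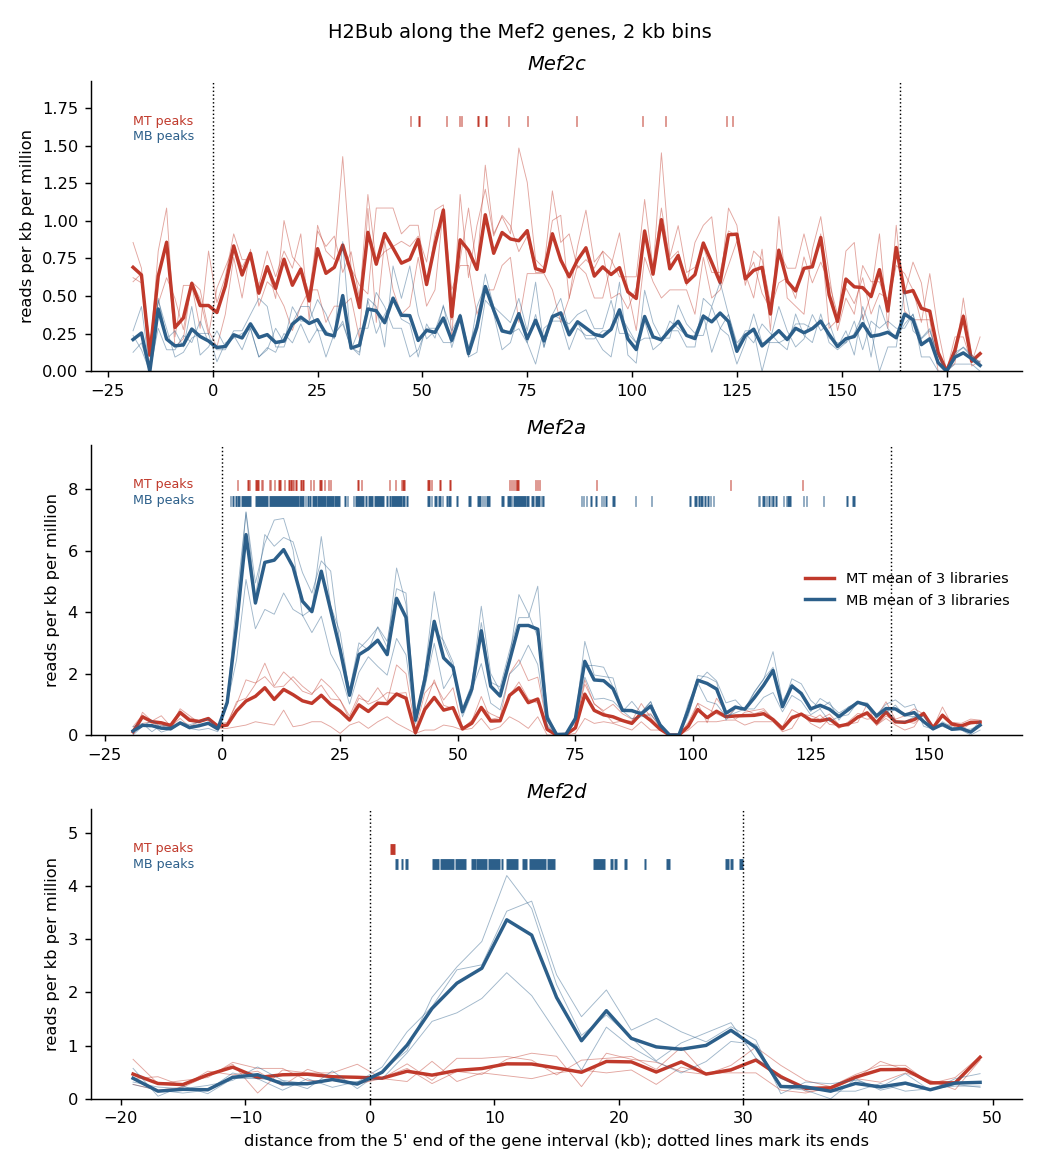
H2Bub density in 2 kb bins (RPKM, vertical axis, on a scale of its own in each panel) against distance from the 5′ end of the gene interval (kb), with dotted lines at the 2 ends; thick lines are means and thin lines single libraries of MT (red) and MB (blue), and ticks above mark the deposited peaks. Mef2c is mostly higher in MT, with its highest MT density inside the gene and 14 MT and 0 MB peaks, Mef2a slopes from its 5′ end, and Mef2d has an MB maximum inside the gene.

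The 10 kb windows were counted from the same reads as the genes, so their calls are not separate evidence. The comparison was fitted with limma voom over all 233813 windows with Benjamini-Hochberg adjustment, and a window was called at an adjusted p under 0.05. In Mef2c 17 of 17 windows were called higher in myotubes and 0 lower, where 70.9% of all windows were called higher, so that this count is near what most of the genome shows. In Mef2a 13 of 14 windows were called lower and 0 higher, and in Mef2d 3 of 3 were called lower, where 13.1% of all windows were called lower. Of windows with an MB peak anywhere in the genome, 85.7% were called lower, and every window of Mef2a and Mef2d held an MB peak. All myotube libraries lay above all myoblast libraries in 17 of 17 Mef2c windows (67.5% of all windows), and below them in 13 of 14 Mef2a windows and 3 of 3 Mef2d windows (13.3% of all windows). Since the genes were chosen with this contrast known, nothing is read from these counts.

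The median log2 fold change was 1.22 in Mef2c, -1.45 in Mef2a and -1.11 in Mef2d, beside 0.78 over all windows, 0.84 over windows without a peak and -1.13 over windows with an MB peak. In Mef2a it ran from -2.36 at chr7:74500001-74510000, 13 kb from the 5′ end, to -0.51 at chr7:74420001-74430000, 93 kb from it, the window that was not called. The first of these windows was also the densest of the gene, with 1.32 ± 0.783 RPKM in myotubes and 5.44 ± 1.13 RPKM in myoblasts (SD, n = 3 each). The other had 0.274 ± 0.108 RPKM in myotubes and 0.392 ± 0.0678 RPKM in myoblasts. It included the 2 bins of 2 kb, 95 and 97 kb from the 5′ end, that held no read in any library.

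In Mef2d the window with the lowest log2 fold change, -2.11 at chr3:87950001-87960000, was also its densest in myoblasts, with 0.571, 0.465 and 0.677 RPKM in myotubes, against 1.85, 3.02 and 2.78 RPKM in myoblasts. The next window, chr3:87960001-87970000, had -1.11. The last window, chr3:87970001-87980000, reaches past the 3′ end and had -0.61, from means of 0.568 RPKM in myotubes and 0.883 RPKM in myoblasts. The part of Mef2d before chr3:87950001, which holds its only MT peak, fell in no counted window. In Mef2c the fold changes lay in a narrow band, from 1.01 at chr13:83680001-83690000 to 1.62 at chr13:83740001-83750000. This second window had 0.776, 0.53 and 0.691 RPKM in myotubes, against 0.237, 0.219 and 0.189 RPKM in myoblasts.

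With background scaling, in which factors from the bulk of the windows replace total reads, the median of all windows moved to 0.09 and the fold changes of all 3 genes moved down. Of the Mef2c windows, 7 of 17 were then called higher and 0 lower, where 2.22% of all windows were called higher, and their median log2 fold change was 0.52. Without MT replicate 2 under the same scaling, 13 of the 17 were called higher, where 1.67% of all windows were called higher. Mef2a and Mef2d windows were called lower in 14 of 14 and 3 of 3 cases, where 18.8% of all windows and 98.2% of windows with an MB peak were called lower. The log2 ratio over the whole gene was 0.63 for Mef2c, -2.26 for Mef2a and -2.23 for Mef2d, and 0.79, -1.90 and -2.08 without MT replicate 2.

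**Figure D4:**
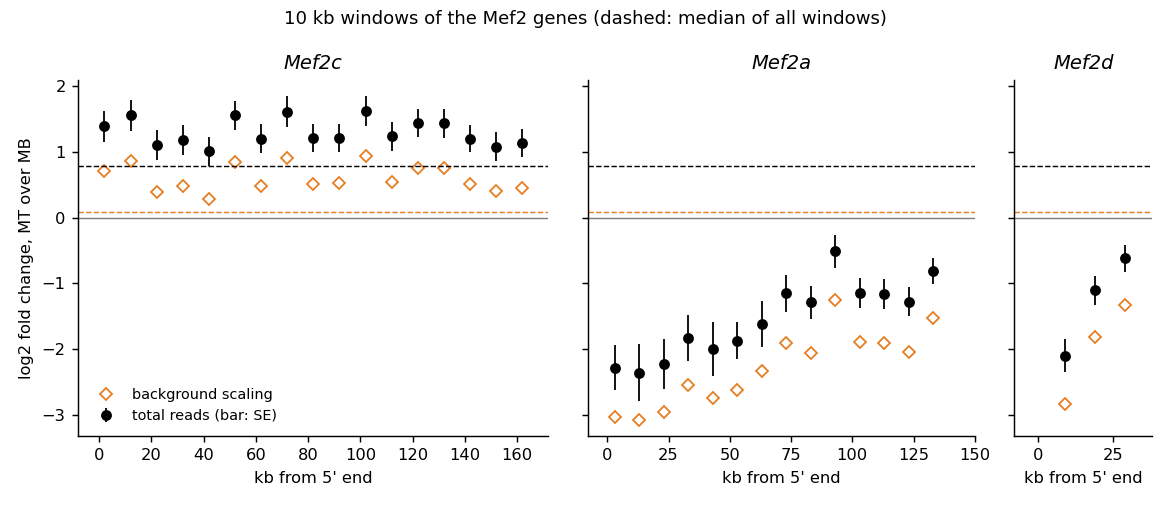
Log2 fold change of MT over MB (vertical axis) for each 10 kb window against distance from the 5′ end (kb), scaled by total reads (black, bars are the SE) or by background (orange diamonds); dashed lines are the medians of all windows, 0.78 and 0.09. Mef2c windows lie above both medians and above 0, while those of Mef2a and Mef2d lie below 0.

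The deposited peak lists, 1 per group and without replicates, were known when the genes were selected, so they too are given as a description. Mef2c held 14 MT peaks and 0 MB peaks. Mef2a held 45 MT peaks and 89 MB peaks, and Mef2d 1 MT peak and 23 MB peaks. MT peaks covered 2.29% of Mef2c, 10.1% of Mef2a and 1.31% of Mef2d, and 0.299% of chromosomes 1 to 19 and X. MB peaks covered 0% of Mef2c, 41.8% of Mef2a and 40.1% of Mef2d, and 3.92% of those chromosomes.

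The MT peaks of Mef2c lay inside the gene, away from its 5′ end. They ran from 47.3 to 124 kb from the 5′ end, with 0, 9, 4 and 1 in successive 25% parts of the gene. RefSeq starts of Mef2c on GRCm38.p6 lie 0.02, 19.6 and 69.6 kb from the 5′ end of the gene, positions that may differ slightly in mm9. The MT peak 70.5 kb from the 5′ end lay near the last of these starts, as did the densest myotube window, centred at 72 kb. Whether either belongs to that start was not tested. The 14 peaks together held 67, 52 and 115 reads in myotubes, against 18, 15 and 20 reads in myoblasts. Their density over that of the rest of the gene was 2.65, 2.75 and 2.98 in myotubes, against 1.66, 1.49 and 1.27 in myoblasts. MT replicate 2 was here between the other myotube libraries, although the peaks were drawn from myotube reads and their excess there follows in part from that choice. The peaks held 6.15% ± 0.353 of the reads of the gene in myotubes and 3.34% ± 0.429 in myoblasts (SD, n = 3 each), so most of the Mef2c reads lay outside them. The widest, chr13:83705974-83706423 (449 bp), had 6, 4 and 14 reads in myotubes, against 0, 3 and 0 in myoblasts.

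In Mef2a, 44 of the 45 MT peaks shared at least 1 bp with an MB peak, and 23 of the 89 MB peaks overlapped an MT peak. In successive 25% parts of the gene from the 5′ end there were 26, 16, 1 and 2 MT peaks, against 25, 28, 20 and 16 MB peaks. The widest MB peak of the gene, chr7:74501789-74508087 (6298 bp), had 1.87, 0.447 and 1.70 RPKM in myotubes, against 6.57, 6.26 and 4.23 RPKM in myoblasts. The widest MT peak, chr7:74510229-74511155 (926 bp), had 2.96, 0.467 and 2.61 RPKM in myotubes, against 7.09, 5.96 and 4.41 RPKM in myoblasts, so that this myotube peak was denser in every myoblast library. Reads inside MT peaks were at 3.37 ± 0.611 times the density of the rest of the gene in myotubes and 3.09 ± 0.0321 times in myoblasts (SD, n = 3 each), and the myotube mean without MT replicate 2 was 3.72. The MT peaks of Mef2a were thus denser than the rest of the gene in both groups, although the peaks were drawn from myotube reads. Most of these peaks lay toward the 5′ end, where myoblast density was higher as well. Whether they were denser beyond that gradient was not tested. Joined across gaps of up to 3 kb, MB peaks formed 3 stretches of at least 10 kb in Mef2a, the longest of 37.9 kb at chr7:74478548-74516463, and MT peaks formed 1, of 20 kb.

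The single MT peak of Mef2d, chr3:87947602-87947996 (394 bp), lay 1.8 kb from the 5′ end and overlapped no MB peak. It had 4, 5 and 6 reads in myotubes, against 2, 8 and 7 in myoblasts, which corresponds to 1.19 ± 0.163 RPKM in myotubes and 1.20 ± 0.696 RPKM in myoblasts (SD, n = 3 each). No difference was detectable there at this depth. The widest MB peak, chr3:87958816-87960154 (1338 bp), had 0.853, 0.242 and 0.981 RPKM in myotubes, against 1.69, 4.41 and 4.61 RPKM in myoblasts. MB peaks of Mef2d formed 1 stretch of 12.9 kb with 14 peaks, over 42.9% of the interval, and MT peaks formed 0.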

How the data were processed

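Per the labels, 3 MT and 3 MB libraries were made by H2Bub ChIP-seq. The authors deposited, per library, where each read mapped and on which strand, and per group 1 list of peak boundaries without scores, on mm9 per the submitters' processing notes. The sources used here name no aligner, filter, peak caller or pooling. The files held 0 repeated lines, so dense regions may be compressed. Reads were counted here by listed position. Gene intervals were not checked against an mm9 annotation. RefSeq genes on GRCm38.p6 were 163.1, 145.3 and 30.15 kb long for Mef2c, Mef2a and Mef2d, against intervals of 164, 142 and 30 kb. Strand, neighbours and promoters come from that build, and no coordinates were converted. The other genes planned for comparison were not analysed here.

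Windows counted for a gene had at least 5 kb inside it. To be tested, a window needed 10 reads, scaled to the median library, in 3 libraries, and 15 reads over all 6. They were fitted with limma 3.58.1 (voom, two-sided) in R 4.3.3. The fitting procedure was also run on simulated data in which few windows changed. Those data lacked the shift across most windows seen here with total reads, so they could not test the calls made here. The labels do not state separate cultures, so p-values reflect the spread of these libraries, which may be technical. Background scaling used trimmed mean of M-values factors (1.25 to 1.33 in MT, 0.72 to 0.827 in MB). Named windows were those wholly inside a gene with the highest MB density, or the lowest or highest log2 fold change; named peaks were the widest of each list. Peak stretches were defined as in earlier work on these data. Members, lists and tests were chosen with earlier results of these data known. Alternatives covered scaling, interval ends, read shifts, floor, window grid, replicate block, limma-trend, flank size, peak rules and each library left out. Counting and drawing used matplotlib 3.10.9, pandas 2.3.3, NumPy 2.4.6 and Python 3.11.15.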

Additional observations from a re-analysis of the deposited data

How the results depend on the processing

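The log2 ratio of MT to MB kept its sign at all 3 genes under every alternative tried. With background scaling it was -2.26 for Mef2a, 0.63 for Mef2c and -2.23 for Mef2d, and with scaling by reads outside peaks 0.84 for Mef2c and -2.01 for Mef2d. Background scaling without MT replicate 2, chosen after the data were seen, gave -1.90 for Mef2a, 0.79 for Mef2c and -2.08 for Mef2d. With 1 library left out the ratio was -1.82 to -1.21 for Mef2a, 1.23 to 1.46 for Mef2c and -1.71 to -1.40 for Mef2d. Mef2c windows called higher fell to 7 of 17 with background scaling, alone or with the replicate block; over all windows the calls higher were then 5200 and 6971, and 3924 without MT replicate 2, against 165795 with total reads. The replicate block with total reads gave 13 windows lower in Mef2a, 17 higher in Mef2c and 3 lower in Mef2d, where 13.2% of all windows were called lower and 71.0% higher. Deviations of same-numbered libraries correlated at 0, -0.169 and 0.15, and the libraries were treated as unpaired. With 1 library left out, Mef2d had 2 to 3 windows called lower, 2 without MB replicate 2. Density over background, with the upstream and downstream 50 kb chosen after the data were seen, was 1.32 and 3.39 in MT and 1.24 and 2.76 in MB for Mef2c, and 1.15 and 1.26 in MT and 3.76 and 6.95 in MB for Mef2d; with windows within 100 kb Mef2d in MT was 1.18. In parts of 20% instead of 25%, the ratio of the first to the last part of Mef2d was 0.799 in MT and 1.02 in MB. By construction, the upper 50% of peaks by width left 20 MT and 50 MB peaks in Mef2a, 6 MT peaks in Mef2c and 11 MB peaks in Mef2d. Depth limits single peaks most, since the Mef2d MT peak held 2 to 8 reads per library.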
